A study of Rattus norvegicus with 8 samples.

Results

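The 9 cytosolic heat shock genes of the rat are described here across N27 cells left as control or exposed to manganese, MPP+ or 3-NPA. They are the heat shock factor Hsf1, the Hsp70 proteins Hspa8 and Hspa1b, the J-domain proteins Dnajb1 and Dnaja1, the Hsp110 protein Hsph1, the Hsp90 proteins Hsp90aa1 and Hsp90ab1, and the small heat shock protein Hspb1. The members were taken by gene name from the array files, which placed 9 genes of 26183 in the set, with 17 probes. All 9 passed the filter on dim probes with at least 1 probe, and 16 of the 17 probes did. N27 is an immortalised line of rat mesencephalic cells that the labels call dopaminergic. Each group was measured on 2 single-colour arrays. The groups were untreated control cells, cells given 150 µM Mn for 48 h, cells given 250 µM MPP+ for 48 h, and cells labelled 3-NPA. MPP+ is known as an inhibitor of respiratory complex I, and 3-NPA is taken here as 3-nitropropionic acid, an inhibitor of succinate dehydrogenase. The dose and time of 3-NPA are not in the labels. The labels do not say that the arrays of a group came from separate cultures, so p-values measure the spread between these arrays, which may be technical.

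Heat shock proteins keep other proteins folded. Hsp70 proteins bind exposed stretches of unfolded chains with the help of J-domain proteins, which deliver clients and speed up the hydrolysis of ATP, and of Hsp110 proteins, which exchange the nucleotide. Hsp90 proteins act later, on clients such as kinases and steroid receptors, and small heat shock proteins hold unfolded proteins without using ATP. Hsf1 is the transcription factor that raises many of these genes when unfolded protein builds up, by binding arrays of the unit nGAAn, the heat shock element. Hspa8 and Hsp90ab1 are known as constitutive forms, and Hspa1b as the strongly inducible Hsp70.

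The heat shock element is shown first, because it is the sequence that Hsf1 is known to bind. The motif of 2 units was searched as GAANNTTC and TTCNNGAA, each its own reverse complement, where N is any base. The motif of 3 units adds a further GAA or TTC after another 2 bases, so that GAA and TTC alternate, and was searched on both strands. Matches of 2 units inside a match of 3 units were counted under both. Of the 9 members, 6 were in the RefSeq promoter table (build GRCr8, 250 bases before to 50 after the start of the gene). Hspa1b, Hsp90aa1 and Hsf1 were not, so the motif was not searched for them. A match of 2 units lay in the window of 5 of these 6, and in 15.9% of all 33469 windows of the same length. A match of 3 units lay in 3 of the 6 windows and in 0.798% of all windows. Hsp90ab1 held neither. The 250 bases before the start are printed 5′ to 3′ on the strand of the gene for Hspa8, Hsph1 and Dnaja1, the members with a match of 3 units in the window. Capitals mark matches of 2 or 3 units. The Hspa8 sequence is chr8:50080264-50080513 on the + strand, the Hsph1 sequence chr12:10427118-10427367 on the + strand, and the Dnaja1 sequence chr5:60638154-60638403 on the + strand.
Hspa8: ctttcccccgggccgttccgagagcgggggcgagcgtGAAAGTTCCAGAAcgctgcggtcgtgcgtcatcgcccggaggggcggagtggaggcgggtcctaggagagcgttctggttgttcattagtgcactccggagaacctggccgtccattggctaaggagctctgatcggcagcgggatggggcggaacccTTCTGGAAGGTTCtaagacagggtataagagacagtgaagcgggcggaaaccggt
Hsph1: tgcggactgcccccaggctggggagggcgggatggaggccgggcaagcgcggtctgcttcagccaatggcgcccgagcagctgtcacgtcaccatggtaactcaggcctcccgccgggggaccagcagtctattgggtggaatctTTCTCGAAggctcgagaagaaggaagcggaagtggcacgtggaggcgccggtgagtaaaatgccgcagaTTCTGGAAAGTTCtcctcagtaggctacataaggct
Dnaja1: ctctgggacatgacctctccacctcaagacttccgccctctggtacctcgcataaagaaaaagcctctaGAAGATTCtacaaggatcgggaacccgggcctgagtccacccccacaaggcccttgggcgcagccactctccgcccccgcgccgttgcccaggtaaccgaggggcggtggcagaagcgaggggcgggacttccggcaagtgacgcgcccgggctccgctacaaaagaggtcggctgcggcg
Hspa8 held matches of 3 units at 213 and at 55 bases before the start, and Hsph1 held a match of 3 units at 36 bases before it. The match of 3 units in Dnaja1 began at base 9 after the start, outside the printed sequence, which holds a match of 2 units at 181 bases before the start. In the 250 bases before the start alone, 2 of the 6 members and 0.663% of all windows held 3 units. A match describes these letters and shows neither binding nor a cause.

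No general rise of the 9 genes was measured after any of the 3 toxins. A gene was called at an adjusted p below 0.05 in 1 limma fit of all 8 arrays, with 16908 genes tested. With Mn, 0 of 9 members passed, where 7.66% of all genes did, and 3 of the 9 had an unadjusted p below 0.05. With MPP+, 0 of 9 passed, where 13.9% of all genes did, and again 3 had an unadjusted p below 0.05. With 3-NPA, 3 of 9 passed, where 38.3% of all genes did, and 7 had an unadjusted p below 0.05. The count of 3 called with 3-NPA was thus near the background. The share of all genes with an unadjusted p below 0.05 was not counted. The unadjusted counts here and below therefore have no background and are not read as a result about these genes. The called members went different ways, since Hspa1b rose and Hspa8 and Dnaja1 fell, beside 22.3% of all genes called higher and 16% called lower. The estimate lay below control for 6 members with Mn, 7 with MPP+ and 6 with 3-NPA, beside 52.1%, 48.2% and 46.4% of all genes. The median log2 change of the members was -0.26, -0.14 and -0.32, beside -0.02, 0.02 and 0.05 over all genes tested. In a bulk sample, fewer cells of a type and less RNA per cell cannot be told apart.

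**Figure D1:**
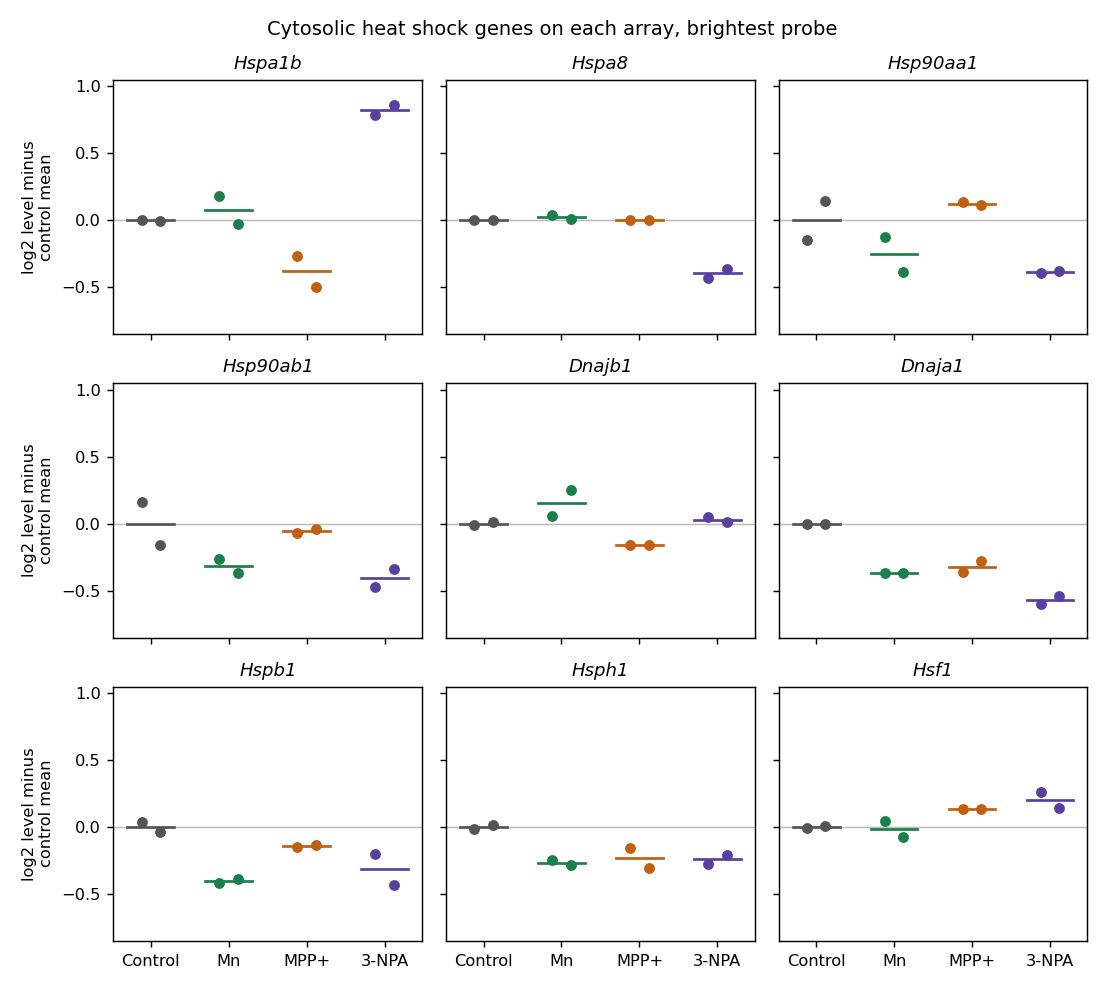
Level of each of the 9 genes on each array, as log2 relative to the mean of the 2 control arrays; dots are arrays and bars are group means. Hspa1b on the 3-NPA arrays is the only group that stands far above control, while Dnaja1 lies below control in every toxin group and Hspa8 only with 3-NPA.

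Levels below are log2 of the processed signal of a probe relative to the 75th percentile of its array, so 0 is that percentile, and each concerns 1 probe followed over the arrays. Hsf1, the master regulator, had levels of 2.17 and 2.18 on the control arrays, 2.22 and 2.10 with Mn, 2.31 and 2.31 with MPP+, and 2.44 and 2.32 with 3-NPA. The MPP+ and 3-NPA arrays all lay above both control arrays, and the Mn arrays lay on either side. The probe is at chr7:114550596-114550655 of rn4. The log2 difference from control was 0.21 ± 0.09 (SE, n = 2 arrays per group) with 3-NPA, with an interval from -0.02 to 0.43 and a limma adjusted p of 0.127. It was 0.14 (adjusted p = 0.363) with MPP+ and -0.01 (0.946) with Mn. Hsf1 was thus not called with any toxin, and the intervals allow changes in its transcript of up to 0.43. The protein is known to be controlled mainly after translation, which an array of transcripts does not read.

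By the brightest probe of each gene, Hspa1b, the inducible Hsp70, was the member with the largest difference. Dimmer probes of Hspa8, given below, changed more with 3-NPA, by up to -1.20. Hspa1b levels were -2.36 and -2.37 on the control arrays, -2.18 and -2.39 with Mn, -2.63 and -2.86 with MPP+, and -1.58 and -1.50 with 3-NPA. Both 3-NPA arrays lay above every other array and both MPP+ arrays below every other array, and the Mn arrays overlapped control. Hspa1b rose 1.77-fold with 3-NPA, by 0.83 ± 0.12 on the log2 scale (SE; limma adjusted p = 0.00367). With MPP+ the difference was -0.38 ± 0.12, at 76.7% of control, and missed the threshold (adjusted p = 0.0876). With Mn it was 0.08 ± 0.12 (adjusted p = 0.704). The difference between 3-NPA and MPP+ was larger than that of either from control. Hspa1b with MPP+ was 2.31-fold below Hspa1b with 3-NPA (-1.21 ± 0.12, adjusted p = 0.00135), and with Mn 1.68-fold below it (-0.75 ± 0.12, adjusted p = 0.00708). Without the second 3-NPA array the comparison of Mn with 3-NPA no longer passed (adjusted p = 0.0527).

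The signal behind Hspa1b was low. The mean processed intensity of its probe, printed in 10 spots per array, was 225 and 199 units on the control arrays, 248 and 217 with Mn, 206 and 163 with MPP+, and 361 and 411 with 3-NPA, and it was well above background on all 8 arrays. The array places this probe at chr20:3957864-3957923 of rn4, at base 4229 of a transcript record that is not among the accessions of the RefSeq table, where the gene Hspa1b is 2456 bases long. Which transcript the probe reads is therefore uncertain. The other Hspa1b probe, at base 5858 of the same record, was well above background on 0 of 8 arrays and was left out.

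Hspa8, the constitutive Hsc70, fell with 3-NPA and gave values close to control with Mn and MPP+. The levels of its brightest probe were 7.29 and 7.29 on the control arrays, 7.33 and 7.30 with Mn, 7.29 and 7.29 with MPP+, and 6.86 and 6.93 with 3-NPA. The 6 arrays outside 3-NPA lay within 0.04 of one another, and both 3-NPA arrays lay below all of them. With 3-NPA the probe fell to 76% of control (-0.40 ± 0.08 log2, SE, limma adjusted p = 0.0121). The call was lost with the first 3-NPA array left out (adjusted p = 0.0841), with the second left out (0.0528), and in a fit of only the 4 arrays compared (0.0516). For Mn and MPP+ the intervals of the difference from control were -0.17 to 0.22 and -0.20 to 0.19. Hspa8 was also higher with Mn (0.42, adjusted p = 0.0128) and with MPP+ (0.39, adjusted p = 0.0156) than with 3-NPA. The comparison of MPP+ with 3-NPA no longer passed under quantile normalization or with any 1 of its toxin arrays left out. That of Mn with 3-NPA no longer passed with either 3-NPA array left out or with only its 4 arrays.

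Hspa8 is read by 4 probes, and their sequences are given because they did not agree on the size of its fall. They are printed 5′ to 3′, named by the base of the transcript at which they begin, and capitals mark the 20 bases that the first and second share. On rn4 they lie on the + strand of chromosome 8, from chr8:43785314-43785489 for the first to chr8:43787518-43787576 for the last.
Hspa8 at 483: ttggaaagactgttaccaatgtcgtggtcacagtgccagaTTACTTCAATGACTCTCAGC
Hspa8 at 523: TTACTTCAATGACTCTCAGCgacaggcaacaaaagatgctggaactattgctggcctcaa
Hspa8 at 1800: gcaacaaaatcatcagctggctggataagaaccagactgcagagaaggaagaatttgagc
Hspa8 at 1860: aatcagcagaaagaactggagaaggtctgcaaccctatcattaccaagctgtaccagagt
The probe at 483 had levels of 0.85 and 0.93 on the control arrays, 0.56 and 1.04 with Mn, 0.82 and 1.1 with MPP+, and -0.44 and -0.19 with 3-NPA. Its difference with 3-NPA was -1.20 ± 0.19 (limma adjusted p = 0.00544, over 19460 probes), and that of the overlapping probe at 523 was -1.11 ± 0.22 (adjusted p = 0.0121). These 2 share part of their sequence and are not independent. The probe at 1800 gave -0.94 ± 0.36 (adjusted p = 0.0869), with the second Mn array at 5.13 and the second 3-NPA array at 4.80 low against 6.15 and 6.09 in control. The brightest probe, at 1860, gave the value of -0.40 above and is the smallest of the 4. All 4 estimates were below control with 3-NPA, and none passed for Mn or MPP+. The mean over the 4 probes fell by 0.91 with 3-NPA, more than 2 times the fall of the brightest probe on the log2 scale. The brightest probe had 125063 to 199611 intensity units per array, under the saturation value of 778049 in the files.

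**Figure D2:**
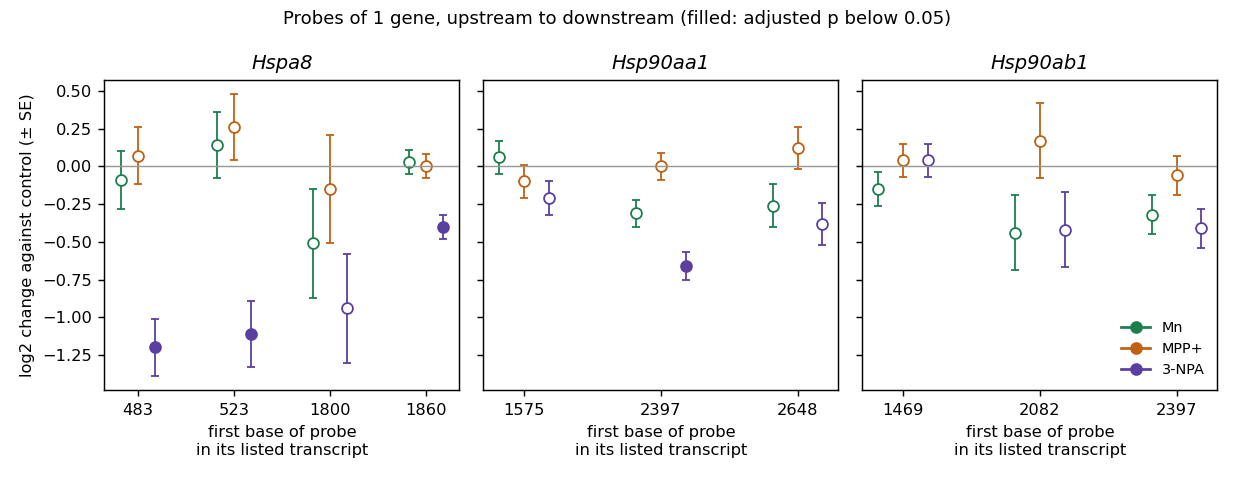
Log2 change against control, with standard error, of each probe of the genes with several usable probes, ordered by its first base in the transcript; filled dots passed an adjusted p below 0.05. With 3-NPA the Hspa8 probes ran from -1.20 at 483 to -0.40 at 1860, and the Hsp90ab1 probe at 1469 stood at 0.04 while the others stood at -0.42 and -0.41.

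Across all 1299 transcripts with kept probes at least 500 bases apart, the change of the upstream probe minus that of the downstream probe had a median of -0.06 with 3-NPA, -0.02 with Mn and 0.03 with MPP+. The middle 50% of these differences ran from -0.41 to 0.26 with 3-NPA. What sets the probes of Hspa8 apart was not tested.

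Dnaja1, a J-domain partner of Hspa8, fell with 3-NPA and lay below control on every toxin array. Its probe is printed because it is the only one for this gene and begins at base 1048 of the transcript; on rn4 its ends are at chr5:58110714-58111203, 490 bases apart for a probe of 60.
Dnaja1 at 1048: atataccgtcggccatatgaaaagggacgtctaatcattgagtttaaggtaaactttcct
Dnaja1 had levels of 5.56 and 5.56 on the control arrays, 5.19 and 5.19 with Mn, 5.20 and 5.28 with MPP+, and 4.96 and 5.02 with 3-NPA. No toxin array overlapped control, and the 3-NPA arrays were the lowest. Dnaja1 fell to 67.4% of control with 3-NPA (-0.57 ± 0.08 log2, limma adjusted p = 0.00372), and this call held in all 19 alternatives run, with estimates from -0.71 to -0.36. The differences with Mn (-0.37 ± 0.08, adjusted p = 0.0519) and MPP+ (-0.32 ± 0.08, adjusted p = 0.0535) lay just outside the threshold. They passed when only probes well above background on all 8 arrays were tested (0.0342 and 0.0347), and Mn alone passed with no such filter (0.0402). Directly, Dnaja1 with 3-NPA was not called against Mn (0.20, interval 0 to 0.40, for Mn minus 3-NPA) or against MPP+ (0.25, interval 0.05 to 0.45). Scaled by the median, both passed (0.42 and 0.50, adjusted p = 0.0313 and 0.0149), and the one against MPP+ also passed with array weights (0.0221) and with the filter on all 8 arrays (0.0486).

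Dnajb1, the Hsp40 that Hsf1 is known to raise together with Hspa1b, was not called. Its levels were 2.04 and 2.06 on the control arrays, 2.11 and 2.30 with Mn, 1.89 and 1.89 with MPP+, and 2.10 and 2.06 with 3-NPA. The Mn arrays lay above control, the MPP+ arrays below it, and the 3-NPA arrays reached into it. The probe is at chr19:26214035-26214094 of rn4. The differences were 0.16 ± 0.10 with Mn, -0.16 ± 0.10 with MPP+ and 0.03 ± 0.10 with 3-NPA (limma adjusted p = 0.355, 0.295 and 0.843). The interval with 3-NPA, -0.21 to 0.26, lies below the 0.83 measured for Hspa1b, although the difference between the changes of the 2 genes was not tested.

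Hsph1, an Hsp110 that exchanges nucleotide on Hsp70, had levels of -1.76 and -1.73 on the control arrays, -1.99 and -2.03 with Mn, -1.90 and -2.05 with MPP+, and -2.02 and -1.95 with 3-NPA. All 6 toxin arrays lay below both control arrays. The probe is at chr12:5809732-5809791 of rn4. The differences were -0.26, -0.23 and -0.24 with Mn, MPP+ and 3-NPA, each ± 0.09, and none passed (limma adjusted p = 0.147, 0.154 and 0.0874). The 3 toxins gave values of Hsph1 within 0.03 of one another. The 3 comparisons use the same control arrays, so a shift of those 2 arrays would move all 3.

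Hsp90aa1, the stress-responsive cytosolic Hsp90, had levels of 5.66 and 5.95 on the control arrays, 5.68 and 5.42 with Mn, 5.94 and 5.92 with MPP+, and 5.41 and 5.43 with 3-NPA. The control and Mn pairs spread more widely than the other pairs, the MPP+ arrays lay within the range of control, and the 3-NPA arrays lay below it. The difference was -0.38 ± 0.14 with 3-NPA (limma adjusted p = 0.0705), -0.26 ± 0.14 with Mn (0.297) and 0.12 ± 0.14 with MPP+ (0.581). The value with 3-NPA passed with the mean over probes (-0.42, 0.0141), with the filter on all 8 arrays (0.0487) and without the first control array (-0.53, 0.0394). Hsp90aa1 was 1.42-fold higher with MPP+ than with 3-NPA (0.51 ± 0.14, adjusted p = 0.036), a call lost under quantile normalization, without the filter on dim probes, and when either array of either group was left out. Of its 3 probes, the one at base 2397 fell by 0.66 with 3-NPA (adjusted p = 0.00339), while those at 1575 and 2648 gave -0.21 and -0.38. The brightest, at 2648, is at chr6:135413693-135413752 of rn4. The probe listed at 2397 is placed on only 14 bases of rn4, chr6:135413606-135413619. On the - strand of this gene that lies downstream of the probe listed at 2648, so the order of these 2 probes is uncertain.

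Hsp90ab1, the constitutive Hsp90, had levels of 6.29 and 5.97 on the control arrays, 5.87 and 5.76 with Mn, 6.06 and 6.09 with MPP+, and 5.66 and 5.79 with 3-NPA. The Mn and 3-NPA arrays lay below both control arrays and the MPP+ arrays between them. The differences were -0.32 ± 0.13 with Mn (limma adjusted p = 0.195), -0.06 ± 0.13 with MPP+ (0.797) and -0.41 ± 0.13 with 3-NPA (0.0532). The last passed with each array scaled by its median (0.0179), without the second control array (0.019) and with the filter on all 8 arrays (0.0353). MPP+ minus 3-NPA was 0.35 ± 0.13 (0.0934), and passed with scaling by the median (0.60, 0.0138), array weights (0.0202), only the 4 arrays (0.0375) and either control array left out (0.0407). Its 3 probes did not move alike with 3-NPA, at 0.04 for base 1469, -0.42 for 2082 and -0.41 for 2397, and none of them passed. The brightest, at 2397, is at chr9:11038902-11038961 of rn4.

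Hspb1, the small heat shock protein also called Hsp27 or Hsp25, had levels of 5.19 and 5.11 on the control arrays, 4.73 and 4.76 with Mn, 5.0 and 5.02 with MPP+, and 4.95 and 4.72 with 3-NPA. All 6 toxin arrays lay below both control arrays, the Mn pair and the second 3-NPA array lowest. The difference was -0.41 ± 0.10 with Mn (limma adjusted p = 0.0712), -0.14 ± 0.10 with MPP+ (0.399) and -0.32 ± 0.10 with 3-NPA (0.0543). With the normexp background correction the Mn value (-0.44, 0.0482) and the 3-NPA value (-0.43, 0.0155) passed, as they did with the filter on all 8 arrays (0.0481 and 0.0375). The probe of Hspb1 is at chr12:21911494-21911664 of rn4.

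**Figure D3:**
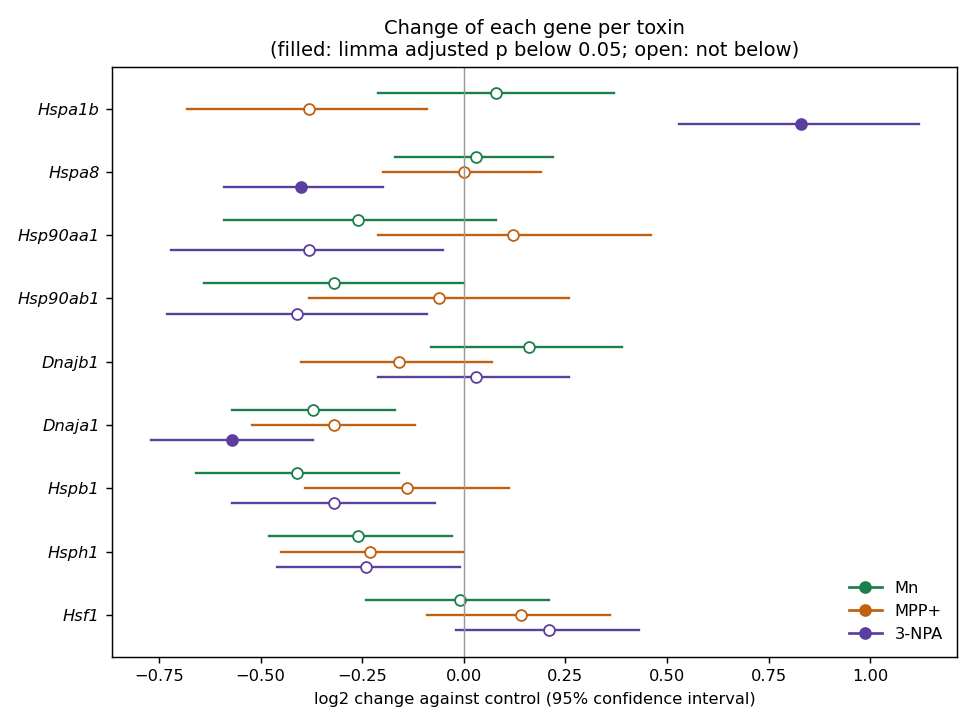
Log2 change of each gene against control with its 95% confidence interval, per toxin; filled dots passed a limma adjusted p below 0.05. The 3 filled dots are Hspa1b (0.83), Hspa8 (-0.40) and Dnaja1 (-0.57), all with 3-NPA, and most open dots lie left of 0.

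Counted by arrays that did not overlap control, 2 members were higher and 4 lower with Mn, beside 25.4% and 25.1% of all genes. With MPP+ 1 was higher and 5 lower, beside 34% and 29.4%. With 3-NPA 2 were higher and 6 lower, beside 39.9% and 31.9%. The 3 comparisons share their control arrays. Among the toxins themselves, 0 members were called between Mn and MPP+ (9.1% of all genes, 4 members at an unadjusted p below 0.05), 2 between Mn and 3-NPA (28.6%) and 3 between MPP+ and 3-NPA (31%). The closest to a call between Mn and MPP+ was Hspa1b, with 0.46 ± 0.12 for Mn minus MPP+ (limma adjusted p = 0.0655), and it passed with normexp (0.041) and with the filter on all 8 arrays (0.0374).

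Relatives and partners of the members were followed through lists of other cytosolic chaperones, of which 55 genes were tested. With Mn 1 was called higher and 3 lower, beside 4.5% and 3.16% of all genes. With MPP+ 2 were called higher and 2 lower, beside 7.47% and 6.47%. With 3-NPA 2 were called higher and 13 lower, beside 22.3% and 16%. These shares of all genes are also the background for each list below, except where another scaling is named. With 3-NPA, 6076 of 16908 genes were called with normexp, 6493 with quantile normalization and 6105 with scaling by the median. Of these called genes, 52.4%, 59% and 42.6% were higher. With MPP+, 2734 were called with normexp and 2786 with quantile normalization, 39.7% and 64.5% of them higher. The median log2 change of the 55 was -0.08, 0.06 and -0.16, so the median with MPP+ lay above 0 while that of the members lay below it. In the Hsp70 and Hsp110 family, 1 of 5 tested genes passed. That gene was Hspa4l, an Hsp110 relative of Hsph1, with levels of -2.49 and -2.06 in control, -0.94 and -1.42 with Mn, -0.49 and -0.60 with MPP+, and -0.88 and -0.68 with 3-NPA. Hspa4l rose with all 3 toxins, by 1.09, 1.73 and 1.49 on the log2 scale (limma adjusted p = 0.0351, 0.00622 and 0.0033), also under each of the 3 other scalings.

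Of 10 J-domain proteins, 1 was called lower with Mn, 1 with MPP+ and 2 with 3-NPA, beside 3.16%, 6.47% and 16% of all genes. With each toxin 0 were called higher, beside 4.5%, 7.47% and 22.3% of all genes. The calls depended on the scaling, since 1 was called higher with MPP+ under normexp and under quantile normalization and 1 with 3-NPA under quantile normalization. Dnaja2, lower with 3-NPA (-0.36, limma adjusted p = 0.0456), was not called under either (0.0714 and 0.0736). Dnajc5, the cysteine string protein of synaptic vesicles, fell by 0.91 with 3-NPA (limma adjusted p = 0.00146) and by 0.41 with MPP+ (0.0489), the latter no longer with scaling by the median. Dnajb2, which is known from neurons, gave -0.40 with Mn by its brightest probe (0.0418), a call also lost under that scaling (0.107). A second probe of Dnajb2 gave 0.78 ± 0.26 with Mn (0.135, over all probes), so the direction for this gene differs between its probes. Of 9 cochaperones of Hsp70, 0 passed in limma with Mn or MPP+ (2 and 1 at an unadjusted p below 0.05), where the smallest p belonged to St13 (-0.76, adjusted p = 0.0566) and Bag1 (0.26, 0.0916). A second probe of St13 gave 0.01 ± 0.13 with Mn. With 3-NPA 3 fell, led by the nucleotide exchange factor Hspbp1 (-0.84, 0.00578), and 0 rose, beside 16% and 22.3% of all genes. Under quantile normalization 2 fell and 3 rose, and under normexp 2 fell and 2 rose.

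Among the small heat shock genes, Cryab and Hspb8 fell with Mn. They were 2 of 4 tested relatives of Hspb1, beside 3.16% of all genes called lower with Mn. With MPP+ or 3-NPA 0 passed, also at an unadjusted p below 0.05, where Hspb8 (0.27, limma adjusted p = 0.289) and Hspb2 (0.18, 0.249) had the smallest p. Cryab, the lens crystallin that is also a stress chaperone, had levels of 5.42 and 5.55 in control, 4.76 and 4.49 with Mn, 5.55 and 5.54 with MPP+, and 5.39 and 5.31 with 3-NPA. It fell by 0.86 with Mn (adjusted p = 0.013) and was lower with Mn than with MPP+ (-0.92, 0.0104) or 3-NPA (-0.72, 0.00725). Hspb8, a partner of Bag3, fell by 1.09 with Mn (0.0146) and was lower with Mn than with MPP+ (-1.36, 0.00761) or 3-NPA (-1.30, 0.00261). The signal of Hspb8 was low, with levels of -2.41 and -2.22 in control and -3.57 and -3.24 with Mn. With normexp its difference with Mn was smaller, at -0.77 (limma adjusted p = 0.0137). Hspb1 itself was not called between any 2 toxins.

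Of 12 tested Hsp90 cochaperones, 0 passed with Mn in limma (2 at an unadjusted p below 0.05), 1 rose with MPP+ and 2 fell with 3-NPA, or 4 with scaling by the median. Over all genes, 7.47% were called higher with MPP+ and 16% lower with 3-NPA. The immunophilin Fkbp4 rose by 0.54 with MPP+ (limma adjusted p = 0.0276). Ahsa2, related to the activator of the Hsp90 ATPase, fell by 0.66 with 3-NPA (0.0177), and the smallest p with Mn was that of Cdc37l1 (-0.25, 0.148). In the chaperonin and prefoldin list of 12, which fold actin and tubulin, 0 passed with Mn or MPP+ in limma (1 and 0 at an unadjusted p below 0.05), where Cct3 (-0.25, 0.129) and Pfdn1 (0.22, 0.294) had the smallest p. With 3-NPA 5 fell, among them Cct6a (-0.72, 0.00421), and 0 rose, beside 16% and 22.3% of all genes. All 12 estimates lay below control, as did 46.4% of those of all genes. Under quantile normalization 2 fell and 10 estimates lay below. In the list of heat shock factors and their regulators 3 genes were tested, Hsf2, Hsbp1 and Hsf2bp. Hsbp1, a small protein that binds Hsf1, fell by 0.41 with MPP+ (0.0295) and by 0.72 with 3-NPA (0.00181), the former not with scaling by the median. With Mn, Hsbp1 stood at -0.31 (0.0877). Hsf2 rose by 0.50 with 3-NPA (0.0127), not with scaling by the median (0.0839).

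**Figure D4:**
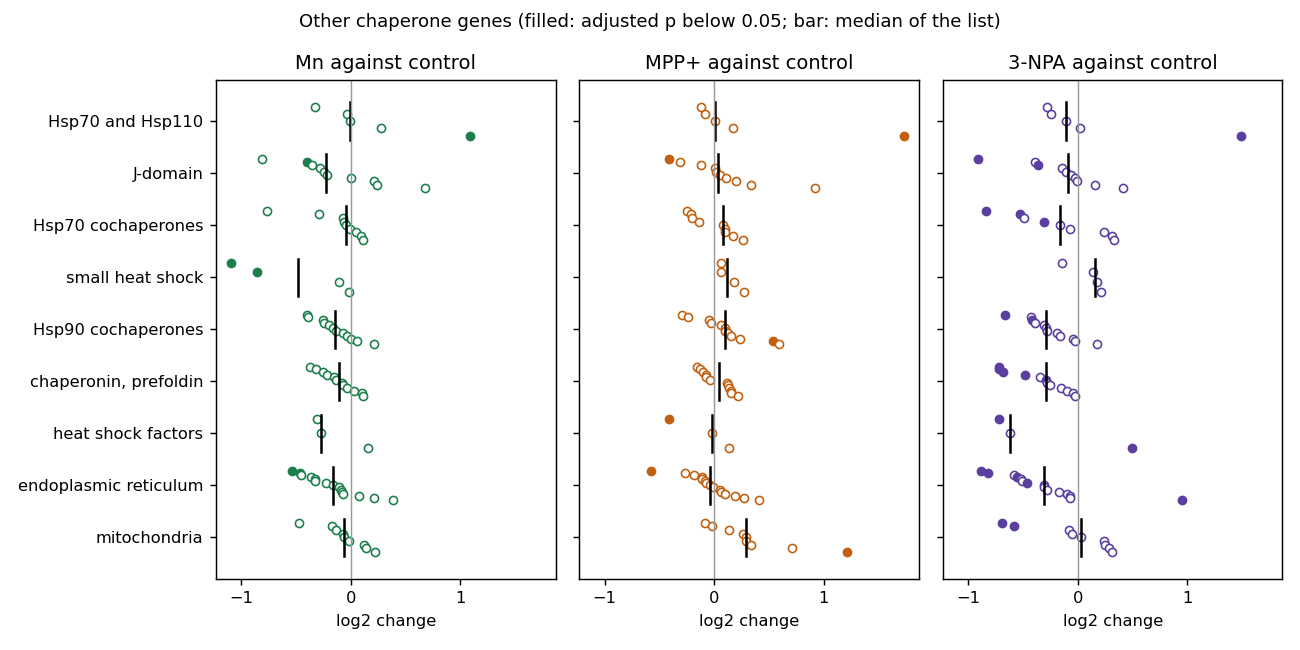
Log2 change against control of each tested gene in the lists of other chaperones, per toxin; filled dots passed a limma adjusted p below 0.05 and the bar is the median of the list. Hspa4l is the filled dot at the right of the top row in each panel, the filled small heat shock genes with Mn are Cryab and Hspb8, and the chaperonin and prefoldin genes all lie left of 0 with 3-NPA.

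Chaperones of other compartments were set beside the members. Of 15 genes of the endoplasmic reticulum, 2 fell with Mn, 1 with MPP+ and 4 with 3-NPA, and 1 rose with 3-NPA, with medians of -0.16, -0.04 and -0.31. Over all genes, 3.16%, 6.47% and 16% were called lower with Mn, MPP+ and 3-NPA, and 22.3% higher with 3-NPA. The calcium-binding Calr was called lower with all 3 toxins, at -0.54 with Mn, -0.58 with MPP+ and -0.88 with 3-NPA (limma adjusted p = 0.0449, 0.026 and 0.00255). Creld2 was called lower with Mn (-0.46, 0.0263) and 3-NPA (-0.55, 0.00364), and Hspa5, the Hsp70 of this compartment, with 3-NPA (-0.82, 0.0033). The J-domain protein Dnajb9 rose with 3-NPA (0.95, 0.00146). Scaled by the median, the falls with Mn and MPP+ no longer passed, while 9 in place of 4 genes were called lower with 3-NPA. Under that scaling 6105 of all 16908 genes were called with 3-NPA, 42.6% of them higher. Of 9 mitochondrial chaperones, 0 passed with Mn in limma, 1 at an unadjusted p below 0.05, and Clpb (-0.47, 0.141) had the smallest p. With MPP+ 1 rose, beside 7.47% of all genes, and 6 had an unadjusted p below 0.05, with a median of 0.29. With 3-NPA 2 fell and 0 rose, beside 16% and 22.3% of all genes, with a median of 0.03. Hspa9, the mitochondrial Hsp70, rose by 1.21 with MPP+ (0.00295), and Grpel1, its nucleotide exchange factor, fell by 0.69 with 3-NPA (0.00419). Hspa8, the cytosolic relative of Hspa9, did not pass with MPP+, as given above.

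For each member the gene with the most similar course was taken, by the root mean square difference of log2 values from control over the 6 toxin arrays, among 11881 genes with a symbol. This was Nrtn for Hspa1b (0.095), Ppp1ca for Hspa8 (0.039), Ppid for Hsp90aa1 (0.056), Slain2 for Hsp90ab1 (0.029), Ech1 for Dnajb1 (0.058), Elof1 for Dnaja1 (0.041), Sephs2 for Hspb1 (0.066), Pcyox1 for Hsph1 (0.045) and Unk for Hsf1 (0.032). By this measure no member was the closest to another member. The measure grows with the size of a change, so its values do not rank how closely the courses match. Ppid, a cyclophilin, is in the list of Hsp90 cochaperones used here.

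The arrays had 32711 to 41354 of 58717 spots well above background and 0 saturated spots, and the pairs of a group correlated at 0.990 to 0.997. All lay on 1 slide with the same scan date, each group in its own pair of positions. A gap in the extraction times of the file headers sets the image files of 3-NPA apart, and is taken here as a second run of the extraction software. Position or run and group therefore cannot be told apart. Of 9 markers of dopaminergic neurons 6 were tested, and Slc6a3, En1 and Foxa2 were not. Their summed signal, relative to the 75th percentile, was 0.601 to 0.649 in control, 0.666 to 0.695 with Mn, 0.602 to 0.662 with MPP+ and 0.780 to 0.787 with 3-NPA. That of the 2 neuron markers tested of 5 was 1.60 to 1.67, 2.00 to 2.70, 2.21 to 2.37 and 4.26 to 4.75, in the same order. Rbfox3, Snap25 and Syt1 were not tested. For Nes, the 1 progenitor marker tested of 3, the signal was 4.64 to 4.70, 6.02 to 6.51, 4.43 to 4.63 and 6.93 to 6.94. Sox2 and Pax6 were not tested. The neuron sum follows Tubb3, with log2 levels of 0.28 and 0.37 in control and 2.17 and 2.03 with 3-NPA. Map2, the other neuron marker, went the other way, from -1.39 and -1.42 in control to -1.95 and -2.46 with 3-NPA, and was also lower on the Mn and MPP+ arrays. The dopaminergic markers did not move alike with 3-NPA either. Ddc went from -4.80 and -5.44 in control to -3.23 and -2.99, and Pitx3 from -5.84 and -6.26 to -4.14 and -4.31. Th, at -1.84 and -1.93 in control, stood at -1.77 and -1.79. Nr4a2 was lower, at -2.38 and -2.34 against -2.22 and -2.33. Astrocyte, microglia and oligodendrocyte lists summed to 0.022 to 0.493 on every array. The part of these shifts in the changes of Hspa1b, Hspa8 and Dnaja1 was not tested. Scaling by the median in place of the 75th percentile moved the median change of all genes from 0.02 to 0.13 with MPP+ and from 0.05 to -0.09 with 3-NPA. The share of called genes that were higher went from 58.8% to 69.9% with Mn, from 53.6% to 71.5% with MPP+ and from 58.2% to 42.6% with 3-NPA. Hspa1b, Hspa8 and Dnaja1 kept their calls with 3-NPA under this scaling, and Hsp90ab1, Hspb1 and Hsph1 also passed, all lower.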

How the data were processed

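Total RNA from the N27 line was hybridised to 8 single-colour Agilent arrays, 2 per group, grouped by the treatment label. The deposited files hold spot intensity from Agilent Feature Extraction 11.5.1.1, background-subtracted, with probe positions on rn4, per the file headers, and 0 or 1 marks for spots well above background and outliers, as deposited. A deposited value table holds log2 values whose making is not given in the sources used here; column medians ran from -4.38 to -3.99, and it served as an alternative. Its scale is close to log2 processed signal (correlation per array 0.9966 or more), and its centring was not stated. In all, 0 columns of samples were not mapped.

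Unmarked spots of a probe were averaged as log2, each array's 75th percentile was set to 0, and 39 probes with every spot an outlier were left out. Of 30328 probes, 19460 were well above background (more than 0.5 of spots) on both arrays of a group, and the brightest stood for a gene (16908 genes). limma 3.58.1 in R 4.3.3 fitted the group means with moderated variances (4 residual and 2.06 prior degrees of freedom) and Benjamini-Hochberg adjustment over all genes. No permutation test was used, since 2 arrays against 2 allow no p under 0.333. Promoters and probes were read with Python 3.11.15. Of the steps, only the limma fit was tested on simulated data, as log2 values with known changes for Mn against control.

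The members and lists were chosen with earlier results of these data known. Named were all members, the gene with the smallest p in each list per toxin, and the closest gene to each member; other named genes were chosen after their values were seen. Alternatives were normexp background correction (offset 50), quantile normalization, scaling by the median, the value table, 2 filters, 2 summaries of probes, array weights, fewer arrays, a replicate block, and leaving out each array. Precision is limited by having 2 arrays per group.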

Additional observations from a re-analysis of the deposited data

How the results depend on the processing

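Of the members called with 3-NPA, Hspa1b and Dnaja1 kept direction and call in all 19 alternatives run, with log2 changes of 0.65 to 0.87 and -0.71 to -0.36, and Hspa8 in 16, with -0.91 to -0.35. Of 46 member differences that were not called, 28 of 901 values under an alternative passed and 34 changed sign, none of the latter called and none above 0.20 in size. The cause of these moves was not tested.

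The count of 3 called members with 3-NPA became 6 with scaling by the median and 6 with the filter on all 8 arrays. It became 2 with only the 4 arrays and 4 with normexp, quantile normalization, the mean over probes or every probe. Over all genes, 6474 of 16908 were called in the main fit, 6105 with scaling by the median and 5036 with only the 4 arrays. The filter on all 8 arrays left 12805 genes, of which 5574 were called. With normexp, quantile normalization and the mean over probes, 6076, 6493 and 6430 genes were called, and 7200 of 19460 probes with every probe. With Mn, 0 became 1 with normexp, 1 with no filter and 2 with the filter on all 8 arrays. Over all genes, 1136 of 16908, 7047 of 26183 and 1270 of 12805 were called there. With MPP+, 0 became 1 with that filter, where 2430 of 12805 genes were called. For Mn against MPP+, 0 became 1 with normexp and 1 with that filter. There 1976 of 16908 and 2090 of 12805 genes were called. For Mn against 3-NPA, 2 became 1 with only the 4 arrays, 3 with scaling by the median and 3 with every probe on its own. In these settings, 3710 and 5202 of 16908 genes and 5293 of 19460 probes were called. For MPP+ against 3-NPA, 3 became 1 with quantile normalization, 6 with scaling by the median and 5 with array weights. In these settings, 5166, 6292 and 7991 of 16908 genes were called. With 1 array left out, the lone array of a group is assumed to vary like the others.

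Signs changed as follows (log2). With the value table, Hspa8 with MPP+ was 0. With the mean over probes, Hspa8 was -0.11 with Mn, 0.04 with MPP+ and -0.15 for Mn against MPP+, and Hsp90ab1 0.05 with MPP+ and -0.04 for Mn against 3-NPA. With normexp, Hsf1 was 0.04 and Hspa8 -0.15 with Mn, Hsp90ab1 0.06 with MPP+, and Hsph1 0.06 for Mn against MPP+ and 0.06 against 3-NPA. With quantile normalization, Dnaja1 was 0.03 for Mn against MPP+, Hsf1 0.01 with Mn, and Hsph1 0.09 for Mn against 3-NPA. Scaled by the median, Dnajb1 was -0.12 with 3-NPA and 0.06 for MPP+ against 3-NPA, Hsf1 0.18 for the latter and 0.06 with Mn, Hsp90ab1 0.05 and Hspa8 0.11 with MPP+, Hspa8 -0.01 for Mn against MPP+, and Hspb1 0.13 and Hsph1 0.20 for Mn against 3-NPA. With 1 array left out, Hspb1 ran from -0.20 to 0.02 and Hsph1 from -0.05 to 0.01 for Mn against 3-NPA, Hsp90aa1 from 0 to 0.26 for the same, Hsph1 from -0.06 to 0.09 for MPP+ against 3-NPA and from -0.11 to 0.04 for Mn against MPP+. With MPP+, Hsp90aa1 ran from -0.02 to 0.27, Hsp90ab1 from -0.22 to 0.10 and Hspa8 from -0.01 to 0. With Mn, Hspa1b ran from -0.02 to 0.18 and Hsf1 from -0.07 to 0.05.

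Replicate numbers only name the arrays. Deviations of same-numbered arrays correlated at -0.02 to 0.50 over 6 pairs of groups. With the replicate number as a block, 0, 0 and 3 members were called with Mn, MPP+ and 3-NPA, and 2 in place of 3 for MPP+ against 3-NPA, where Hsp90aa1 was no longer called (0.51, limma adjusted p = 0.0568). Of all 16908 genes, the block fit called 997, 2046 and 6294 with Mn, MPP+ and 3-NPA, and 5066 for MPP+ against 3-NPA. The counts over all genes moved more: with Mn, 1295 genes became 6 with only the 4 arrays and 7047 with no filter on dim probes, with MPP+ 2357 became 977 and 8834, and with 3-NPA 6474 became 11924 with no filter. Without 1 array they ran from 568 to 1275, 476 to 2383 and 3595 to 6708. For Mn against MPP+, 1538 became 308 with only the 4 arrays and 580 with no filter. With the 6 arrays outside 3-NPA, 653 genes were called with Mn and 1285 with MPP+, and 0 members in either.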
